A study of Mus musculus with 13 samples.

Results

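Setdb1 was depleted in these mouse embryonic fibroblasts (MEFs) with 2 different short hairpin RNAs, shSetdb1.4 and shSetdb1.6, and the libraries of one hairpin were compared with those of the other. The comparison took 6 of the 13 libraries of the series, chosen by the hairpin and drug named in their titles. Of these, shSetdb1.4 had cultures A and B and shSetdb1.6 had a single culture, and each was sequenced without and with 5-azacytidine (5-aza). Libraries were matched by 5-aza status. Another 6 libraries carried control hairpins, the non-silencing hairpin Nons (cultures A and B) and a hairpin against luciferase, Luc (a single culture), and the gap between Luc and Nons served as a measure of how far cultures with different control hairpins stand apart.

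The study examined how Setdb1 keeps the inactive X chromosome silent, and these libraries are poly(A) RNA-seq of primary female MEFs from mid-gestation embryos. The cells given hairpins carried the XistΔA allele on one X and the PGK strain's X as the other. Cells given Setdb1 hairpins were Setdb1+/gt, with a gene trap in one allele whose predicted product lacks the functional domains, and cells given Nons were wild type, while the genotype of the Luc cells is not stated. Retrovirus delivered the hairpin, puromycin selected the cells, 5-aza was given for 24 h from day 3 where the title names it, and RNA was taken on day 7. A difference between a Setdb1 hairpin and a control hairpin therefore includes the gene trap. A difference between shSetdb1.6 and shSetdb1.4 compares cells of the same stated genotype, but shSetdb1.6 was 1 culture, so hairpin and culture cannot be told apart. The labels do not say which embryo each culture came from.

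Setdb1 places methyl groups on lysine 9 of histone H3 (H3K9), a mark of silent chromatin, and is recruited to many of its targets by the co-repressor Trim28. A short hairpin RNA is cut by the cell into a guide strand that directs the Argonaute complex to matching messages. The bases at the start of the guide, its seed, can also pair with the 3′ untranslated regions (UTRs) of unrelated messages, which is why depletion experiments use more than one hairpin. 5-aza blocks the maintenance of DNA methylation, another silencing mark.

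The guides are shown because they define the comparison and start with different seeds. Both are written 5′ to 3′ as DNA, with the seed in capitals.
shSetdb1.4: tTTGTCTGcaaagtcatctgtc
shSetdb1.6: tAGATCTTgagaactgcttttc
All 22 bases of each guide were complementary to the coding sequence of Setdb1 (ENSMUSG00000015697, chr3:95323525-95357202, minus strand, GRCm38). The shSetdb1.4 site lay in exon 16 of 22 at chr3:95327805-95327826, and the shSetdb1.6 site lay upstream, in exon 5, at chr3:95348003-95348024. Both sites were found in 3 protein-coding transcripts of the GENCODE basic annotation. Among the other genes tested, the longest run of complementarity was 16 bases for shSetdb1.4, in Kcmf1, and 15 bases for shSetdb1.6, in Brms1. The gap of shSetdb1.6 minus shSetdb1.4 was 0.08 on the log2 scale for Kcmf1 (standard error (SE) 0.05, limma adjusted p 0.679), which was lower with the hairpin it matches by more than the SE but was not called. For Brms1 the gap was 0.13 (SE 0.07, adjusted p 0.620), which was higher with the hairpin it matches and was not called.

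Setdb1 transcript was lowest with shSetdb1.6 in both 5-aza states. Without 5-aza, it was at 46.4 RPM (reads of the gene scaled to a common library total) with Luc, 46.1 and 46.3 RPM with Nons, 15.4 and 14.7 RPM with shSetdb1.4, and 12.1 RPM with shSetdb1.6. With 5-aza, it was at 43.9 RPM with Luc, 42.7 and 43.5 RPM with Nons, 14.5 and 13.7 RPM with shSetdb1.4, and 10.5 RPM with shSetdb1.6. The 3 kinds of culture did not overlap: every control library was above every shSetdb1.4 library, and each of these was above the shSetdb1.6 library of the same 5-aza state. Against the mean of the 3 control libraries, the transcript left was 33.2% and 31.8% with shSetdb1.4 and 26.2% with shSetdb1.6 without 5-aza. With 5-aza, it was 33.5% and 31.6% with shSetdb1.4 and 24.1% with shSetdb1.6. Taking each culture as the mean of its libraries without and with 5-aza, shSetdb1.6 was lower than shSetdb1.4 by a log2 difference of -0.37 (SE 0.05, 95% confidence interval (CI) -0.51 to -0.24). This gap did not pass the test over all genes (limma, adjusted p 0.591). Without culture A of shSetdb1.4 the gap was -0.34 and without culture B it was -0.41, both from fits with 1 residual degree of freedom and given as sizes only. These reads come from both alleles of Setdb1+/gt cells, and the trapped and the intact allele were not told apart.

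**Figure D1:**
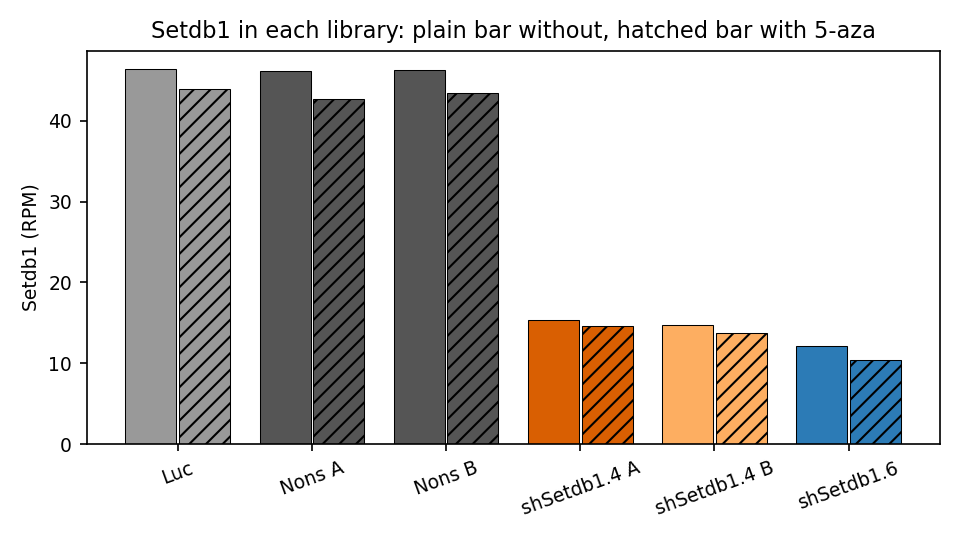
Setdb1 transcript in RPM in each of the 12 hairpin libraries, with a plain bar for the library without 5-aza and a hatched bar for the one with 5-aza. The control libraries lie between 42.7 and 46.4 RPM, the shSetdb1.4 libraries between 13.7 and 15.4 RPM, and the shSetdb1.6 libraries at 12.1 and 10.5 RPM.

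No gene passed the test between the hairpins. The test, in limma, took the 13134 genes that reached 1 RPM in 3 or more hairpin libraries, and a gene was called at an adjusted p under 0.05. Called genes were 0.0% of those tested without 5-aza, 0.0% with 5-aza and 0.0% in the culture means. The lowest adjusted p was 0.761, 0.828 and 0.591. At an unadjusted p under 0.05 there were 838, 692 and 1083 genes. In the culture means, 726 of these (5.53% of genes tested) were higher and 357 (2.72%) were lower with shSetdb1.6. A missed threshold does not show that the hairpins act alike, so the intervals are given too: the 95% CI of the culture-mean gap reached a median of 0.17 log2, or 1.12-fold, to either side of the gap and lay wholly within 2-fold in either direction for 98.1% of genes. With 1 culture of shSetdb1.6 the spread was estimated from the other cultures, and the count of calls rested on them. Without culture A of shSetdb1.4, 434 genes were called in the culture means, and without culture B, 2731. These fits had 1 residual degree of freedom among 5 culture means. Their prior degrees of freedom were infinite, against 3.2 in the main fit, so the spread used for each gene came wholly from the trend over genes. Their counts therefore do not rest on the spread of each gene.

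By its spread over genes, the gap between the Setdb1 hairpins was no wider than that between the shSetdb1.4 cultures without 5-aza. With 5-aza it was wider against culture A and narrower against culture B. By the median absolute log2 gap, it was wider against culture A without 5-aza too. That median was 0.097 against A and 0.084 against B, with 0.086 between the shSetdb1.4 cultures. The standard deviation (SD) over genes of the log2 gap between shSetdb1.4 A and shSetdb1.4 B was 0.213 without 5-aza, and 75 genes were 2-fold or more apart. Between shSetdb1.6 and shSetdb1.4 A it was 0.211, with 54 such genes. Between shSetdb1.6 and shSetdb1.4 B it was 0.167, with 3 such genes. So shSetdb1.4 B was closer to the other hairpin than to its own sister culture. This held with 5-aza too, where the SD was 0.217 within shSetdb1.4 (68 genes), 0.250 between shSetdb1.6 and shSetdb1.4 A (96 genes) and 0.137 between shSetdb1.6 and shSetdb1.4 B (2 genes). The Nons cultures, the other pair with the same hairpin, were closer without 5-aza, with an SD of 0.130 (10 genes), than either gap between the Setdb1 hairpins. With 5-aza their SD was 0.189 (29 genes), between those gaps. Between the control hairpins the SD was 0.188 and 0.213 between Luc and Nons A and B without 5-aza, and 0.289 and 0.173 with 5-aza. All 9 pairs of a Setdb1 hairpin library with a control library were wider than any of these, with SDs of 0.285 to 0.369 without 5-aza and 0.280 to 0.451 with it, apart from the Luc and Nons A pair with 5-aza, whose 0.289 fell within the second range.

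**Figure D2:**
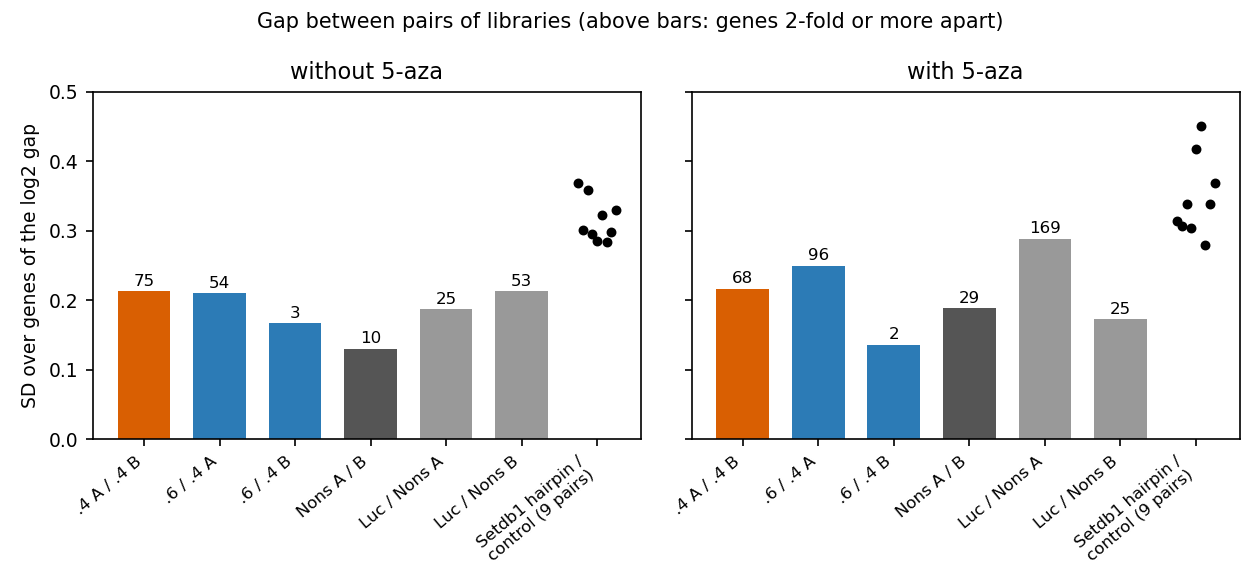
SD over genes of the log2 gap between 2 libraries, without and with 5-aza. Bars are pairs within the Setdb1 hairpins or within the control hairpins, with the number of genes 2-fold or more apart above each, and points are the 9 pairs of a Setdb1 hairpin with a control hairpin. The bars for shSetdb1.6 and shSetdb1.4 B, 0.167 and 0.137, are below those for shSetdb1.4 A and B, 0.213 and 0.217.

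Which culture stood apart was counted per gene. The shSetdb1.6 library was above both shSetdb1.4 libraries in both 5-aza states for 3063 genes (23.3%) and below both for 1753 genes (13.3%), but few of these distances were large. It stood apart from the nearer shSetdb1.4 library by 0.5 log2 or more in both states for 5 genes, all lower, among them Prom1, Trpc6, Tspan13 and Pgm5. Culture shSetdb1.4 A stood apart from the other 2 Setdb1 cultures by that distance for 145 genes, shSetdb1.4 B for 1, Ccbe1, and, among the controls, Luc for 100. By 2-fold, shSetdb1.6 stood apart for 0 genes, shSetdb1.4 A for 15 and Luc for 10. In the culture means, 6 genes had a gap of 2-fold or more between the Setdb1 hairpins, against 42 between Luc and Nons.

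Of those 6 genes, U90926 was higher with shSetdb1.6 and the rest, among them Prom1, Lum, E030010A14Rik and Pgm5, were lower. Prom1, E030010A14Rik, Trpc6, Tspan13 and Ccbe1 are named because of the values they were seen to have. Prom1 (chr5:43993625-44102032), which encodes the membrane glycoprotein prominin, was at 1.49 and 1.22 RPM with shSetdb1.4 and 0.716 RPM with shSetdb1.6 without 5-aza. In the libraries given 5-aza it was at 1.08 and 0.836 RPM with shSetdb1.4 and 0.326 RPM with shSetdb1.6. The control libraries ranged from 0.561 to 0.800 RPM, so without 5-aza shSetdb1.6 lay among the controls and both shSetdb1.4 cultures lay above them. The gap in the culture means was -1.23 log2 (CI -1.77 to -0.69), and that between Luc and Nons was 0.02. E030010A14Rik and Pgm5 are neighbours on chromosome 19 (24674008 to 24679661 and 24683016 to 24861855).

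The genes with the largest gaps whose libraries did not overlap between hairpins in either 5-aza state, of which 11 that were lower and 12 that were higher are given, were expressed at a low to moderate level, and none was called. Among those lower with shSetdb1.6 were Pgm5, a phosphoglucomutase relative of muscle adhesion sites (-1.06), Agtr2, an angiotensin II receptor (-0.98), Heyl, a Notch target (-0.92), Fap, a fibroblast surface protease (-0.90), 1500015O10Rik (-0.88), Fndc1 (-0.86), Gucy1a3, a subunit of the nitric oxide receptor (-0.85), Col24a1, a collagen (-0.83), Hmcn1, a basement membrane protein (-0.80), Tril, an accessory of Toll-like receptors (-0.77), and Il1rn, the interleukin 1 receptor antagonist (-0.75). The CI of the gap crossed 0 for 7 of these 11.

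Fap (chr2:62500943-62574075) shows how such gaps were made up. It was at 5.49 and 2.60 RPM with shSetdb1.4 A and B and 2.22 RPM with shSetdb1.6 without 5-aza. Its level with 5-aza was 2.88 and 1.27 RPM with shSetdb1.4 and 0.940 RPM with shSetdb1.6. Culture shSetdb1.4 A was the highest of the 3 and B lay next to shSetdb1.6. The controls differed too, with 2.08 RPM in Luc against 3.68 and 3.73 RPM in Nons, and 1.62 RPM against 5.6 and 3.37 RPM with 5-aza. Heyl (chr4:123233556-123249875) was at 11.9 and 5.25 RPM with shSetdb1.4 and 4.58 RPM with shSetdb1.6, and with 5-aza at 2.82, 1.09 and 0.844 RPM. Here too culture B was nearer to shSetdb1.6 than to culture A, and Luc, at 6.10 and 2.38 RPM, was below both Nons libraries of the same 5-aza state, which lay at 4.80 to 13.3 RPM over both states.

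Among the genes higher with shSetdb1.6 were U90926 (1.02), S100a7a, an S100 calcium-binding protein of skin (0.76), Tmem171 (0.73), Slc7a8, an amino acid transporter (0.68), Fabp7, a fatty acid-binding protein of glia (0.64), Sdcbp2 (0.63), AC156572.3 (0.61), Gm12603 (0.58), Msln, the mesothelial surface protein mesothelin (0.58), Lgr6, a receptor for R-spondins (0.58), AI836003 (0.57) and Tnnt2, the cardiac troponin T (0.55). The CI crossed 0 for 7 of these 12. Tnnt2 (chr1:135836386-135852260) had the narrowest interval of the 12, 0.32 to 0.79. It was at 5.07 and 5.42 RPM with shSetdb1.4 and 6.87 RPM with shSetdb1.6, and with 5-aza at 7.16, 7.55 and 12.1 RPM. The control libraries lay at 4.85 to 5.48 RPM and, with 5-aza, at 5.27 to 7.75 RPM, so both shSetdb1.6 libraries were above all the others of their 5-aza state, and the shSetdb1.4 libraries overlapped the controls. U90926 instead separated shSetdb1.4 A from the other Setdb1 cultures. It was at 0.673, 2.28 and 2.48 RPM in shSetdb1.4 A, shSetdb1.4 B and shSetdb1.6, and at 2.60, 7.01 and 8.74 RPM with 5-aza. The controls were at 1.88 to 3.29 RPM and, with 5-aza, at 1.18 to 4.66 RPM. So shSetdb1.4 A lay below them without 5-aza and among them with it, where shSetdb1.4 B and shSetdb1.6 lay above them.

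Cxcl14, a chemokine of the list of chemokines and cytokines, was the clearest graded case among abundant genes, an impression formed from its values. It was at 110.0, 107 and 99.6 RPM in Luc and Nons, 74.5 and 64.5 RPM with shSetdb1.4, and 47.9 RPM with shSetdb1.6. With 5-aza it was at 93.6, 99.6 and 98.1 RPM in the controls, 58.5 and 42.6 RPM with shSetdb1.4, and 32.2 RPM with shSetdb1.6. Controls, shSetdb1.4 and shSetdb1.6 did not overlap in either state. The gap between the Setdb1 hairpins was -0.58 (CI -0.92 to -0.24, limma adjusted p 0.591), and Luc minus Nons was 0.01.

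**Figure D3:**
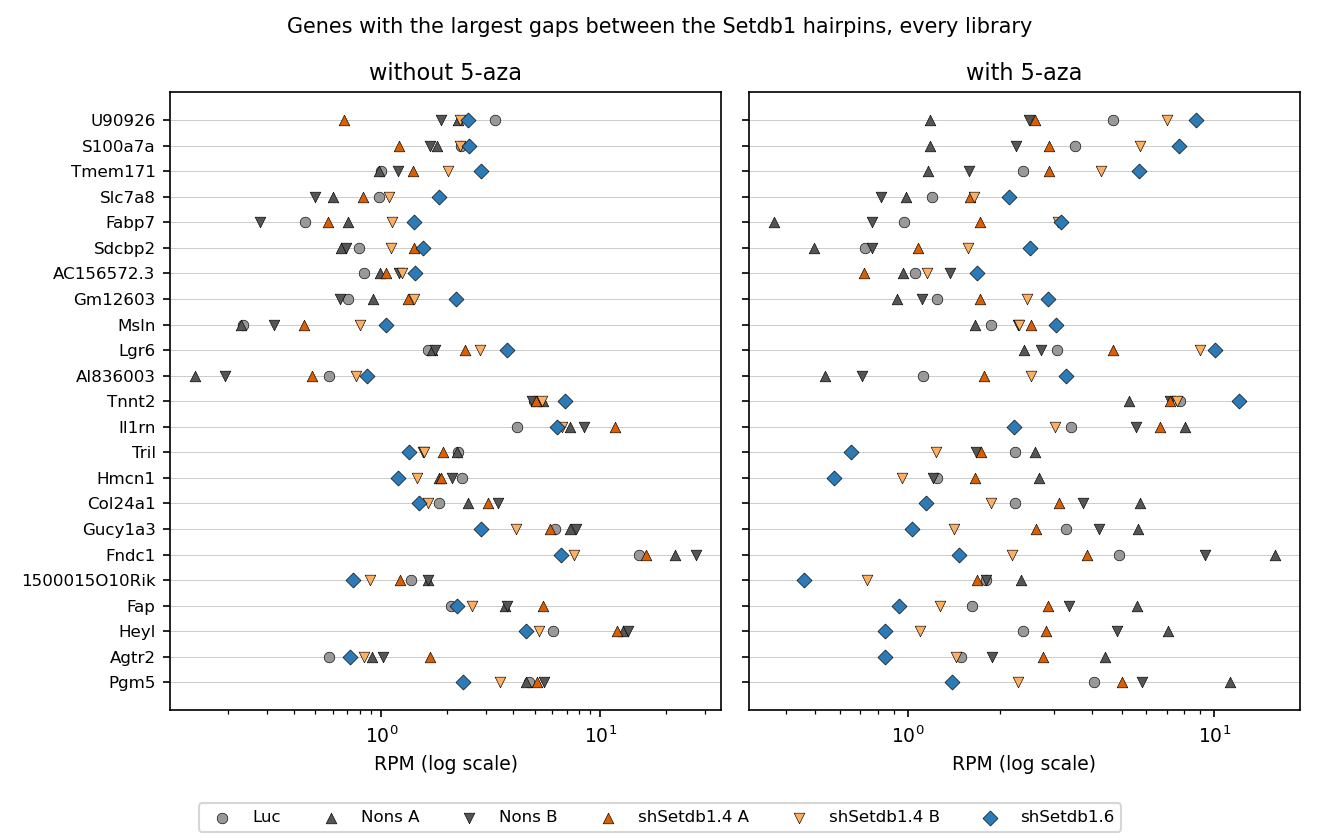
RPM on a log scale of 23 genes with the largest gaps between the Setdb1 hairpins, in every library without and with 5-aza. The blue shSetdb1.6 diamonds lie outside both orange shSetdb1.4 triangles for each gene, in most genes next to shSetdb1.4 B, as for U90926 at 2.28 and 2.48 RPM.

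Each hairpin was also set against a control hairpin that the other did not use, shSetdb1.4 against Nons and shSetdb1.6 against Luc, a comparison added after the data had been seen. No library was shared between the pair of differences. Below, Nons is called the own control of shSetdb1.4 and Luc that of shSetdb1.6, a pairing made here that the labels do not give. Without 5-aza, shSetdb1.4 against Nons called 470 genes (3.58%), 353 higher and 117 lower. Of these, 460 (97.9%) had the same sign in shSetdb1.6 against Luc, where the share over all genes was 72.6%. With 5-aza, 1409 genes (10.7%) were called with shSetdb1.4, of which 1393 (98.9%) had the same sign with shSetdb1.6, against 74.7% of all genes. Among called genes that were also 2-fold or more changed, the sign was shared by 108 of 109 genes without 5-aza and 160 of 160 with it. The counts of shSetdb1.4 calls moved with single libraries. Without 5-aza they were 116 or 98 without Nons A or B and 202 or 255 without shSetdb1.4 A or B. With 5-aza they were lowest, 303, without the Nons A library and 362 without the shSetdb1.4 B library of that state. The median ratio of the shSetdb1.6 difference to the shSetdb1.4 difference, on the log2 scale, was 1.09 without and 1.0 with 5-aza.

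Choosing the genes by the other hairpin gave the same picture of signs and smaller ratios. Against Luc, shSetdb1.6 called 996 genes without 5-aza (7.58%) and 568 with it (4.32%). The sign was shared with shSetdb1.4 for 976 (98.0%) and 566 (99.6%), and the median ratio of the shSetdb1.4 to the shSetdb1.6 difference was 0.469 and 0.776. Genes called with both hairpins and in 1 direction numbered 322 without 5-aza, which is 68.5% of the shSetdb1.4 calls and 32.3% of the shSetdb1.6 calls. With 5-aza they numbered 483, or 34.3% and 85.0%. The controls were then exchanged, so that shSetdb1.4 was set against Luc and shSetdb1.6 against Nons, where 66.9% of all genes shared the sign without 5-aza and 64.1% with it. Of genes called with shSetdb1.4, 609 of 621 (98.1%) shared the sign without 5-aza and 337 of 341 (98.8%) with it. Of genes called with shSetdb1.6, 818 of 835 (98.0%) did without 5-aza, and 2288 of 2495 (91.7%) did with it, where the median ratio was 0.396. The calls of shSetdb1.6 rest on 1 library a side and on a spread taken from the other hairpins: they fell to 367 genes without 5-aza when Nons A was left out and 368 when Nons B was, and to 225 with 5-aza in either case. The difference of the hairpin effects, tested directly in the culture means, was called for 0.0% of genes (765 at an unadjusted p under 0.05, lowest adjusted p 0.699).

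**Figure D4:**
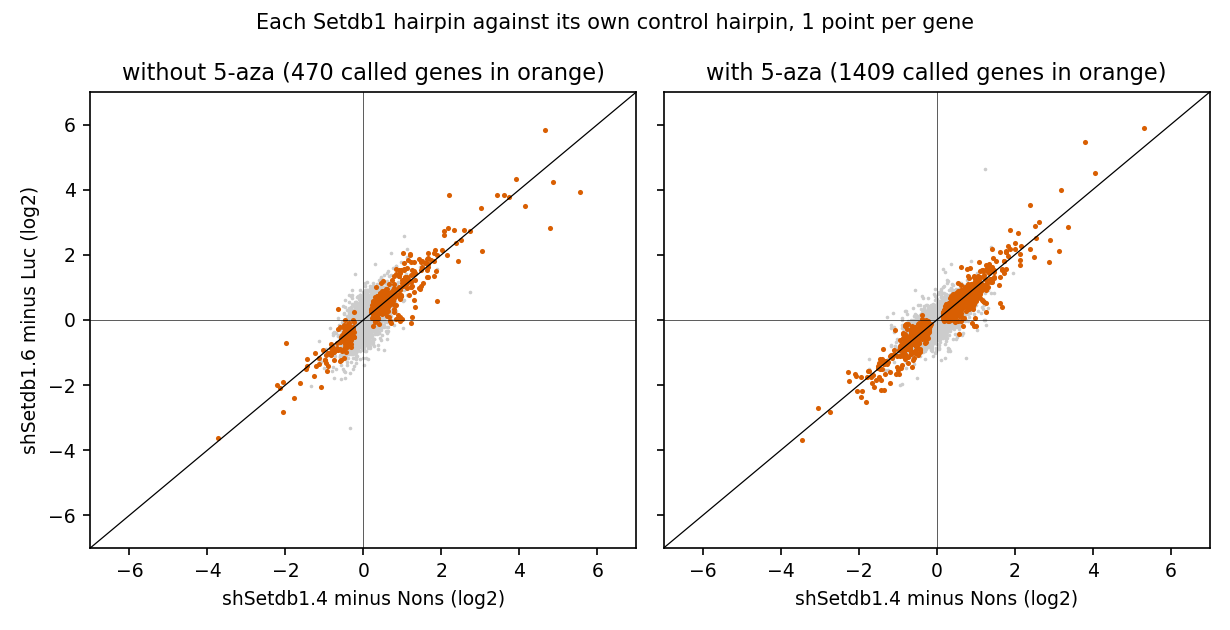
Log2 difference of shSetdb1.6 from Luc (vertical axis) against that of shSetdb1.4 from Nons (horizontal axis) for the 13134 genes tested, with a gene without reads placed at the value of 0.9 read. Genes called with shSetdb1.4 are orange (470 without and 1409 with 5-aza), the diagonal marks equal differences, and all but 10 and 16 of the orange points lie in the quadrants of shared sign.

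The 10 genes called with shSetdb1.4 without 5-aza whose sign differed in shSetdb1.6 were Pgk1, Prom1, Cdkn1c, Hoxc11, Hoxa10, Kazn, Cxcl12, Pdgfd, Abca8b and 1190002N15Rik, named after their values were seen. Pgk1 (chrX:106187100-106203699), the glycolytic phosphoglycerate kinase whose alleles give the PGK strain its name, was the one called with both hairpins in opposite directions. It was lower by a log2 difference of -0.65 with shSetdb1.4 against Nons (adjusted p 0.0004) and higher by 0.35 with shSetdb1.6 against Luc (adjusted p 0.0248). Its level did not separate the Setdb1 hairpins: 30.6 and 29.6 RPM with shSetdb1.4 and 32.8 RPM with shSetdb1.6, and 37.9, 36.3 and 36.7 RPM with 5-aza. It separated the controls, at 25.8 RPM in Luc against 47.5 and 47.0 RPM in Nons and, with 5-aza, 42.2 against 65.7 and 64.8 RPM. The difference of Luc from Nons was -0.87 without 5-aza (SE 0.06, adjusted p 0.0052), the one gene called among control hairpins (0.00761% of those tested). It was not called without Nons A (adjusted p 0.154) or without Nons B (adjusted p 0.138). Luc against Nons called 0.0% of genes with 5-aza and 0.0% in the culture means.

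A list of 12 Setdb1-responsive genes had been named from these data, by comparing all Setdb1 with all control libraries, so that their direction with both hairpins together is not independent evidence. Their values by hairpin are given here. Gm11019 (chr13:97434970-97497007) was at 9.20 and 11.2 RPM with shSetdb1.4 and 10.9 RPM with shSetdb1.6, against 1.48 to 1.64 RPM in the controls. After 5-aza it was at 34.8, 37.5 and 40.4 RPM against 3.29 to 5.56 RPM. The log2 difference from the own control was 2.73 with either hairpin without 5-aza and 3.35 and 2.86 with it. The gap between the hairpins was 0.13 (CI -0.16 to 0.42).

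The other genes of this list that were higher are largely germline or tissue-restricted genes. Tex11, an X-linked gene of meiosis, was at 0.968 and 1.02 RPM with shSetdb1.4 and 1.10 RPM with shSetdb1.6, and at 0.071 RPM or less in the controls. Rbm44, which encodes an RNA-binding protein of germ cells, was at 0.926, 1.12 and 1.5 RPM against 0.212 RPM or less. 2610507I01Rik was at 0.757, 0.986 and 0.978 RPM against 0.064 RPM or less. In all these the control libraries held 10 reads or fewer, so no fold is given. The shSetdb1.6 library was the highest of the 3 for Tex11 and Rbm44 and lay between the shSetdb1.4 libraries for 2610507I01Rik. Cpn1, the catalytic subunit of carboxypeptidase N, was at 2.13, 2.84 and 2.96 RPM against 0.149 to 0.177 RPM, and Angptl7, an angiopoietin-like secreted protein, at 1.01, 3.79 and 2.0 RPM against 0.106 RPM or less. For Angptl7 the shSetdb1.6 library lay between the shSetdb1.4 libraries.

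Of the genes of this list that were lower, Rims2, a scaffold of the presynaptic release site, was at 0.316 and 0.187 RPM with shSetdb1.4 and 0.262 RPM with shSetdb1.6, against 3.15 to 3.27 RPM in the controls. Its log2 difference from the own control was -3.72 (SE 0.25) with shSetdb1.4 and -3.63 (SE 0.36) with shSetdb1.6 (adjusted p 0.0003 and 0.0031). Rab6b, a Rab GTPase of neurons, had differences of -2.14 and -2.09, and Pitpnm3, of the phosphatidylinositol transfer protein family, of -2.20 and -1.99, all called. Rps15a-ps2, a pseudogene that may share reads with its parent gene, had -2.07 and -1.92. Kank4 had the largest gap of the list. It was at 1.49 and 1.56 RPM with shSetdb1.4, 1.03 RPM with shSetdb1.6 and 6.34 to 7.35 RPM in the controls, and with 5-aza at 1.20, 0.995 and 0.940 RPM against 6.74 to 7.43 RPM. Its gap was -0.40 (CI -0.66 to -0.14, adjusted p 0.591), lower with shSetdb1.6 in both states. Gm17430 differed from the controls with 5-aza alone, at 1.20 and 1.19 RPM with shSetdb1.4 and 1.27 RPM with shSetdb1.6 against 4.41 to 5.70 RPM. Over the 12 genes the median gap was 0.10, with 3 above and 1 below both shSetdb1.4 libraries in both states (23.3% and 13.3% of all genes), and 0 called.

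Genes of DNA replication and mitosis were higher with shSetdb1.6 than with shSetdb1.4 throughout. All 36 members tested were above both shSetdb1.4 libraries in both 5-aza states, where 23.3% of all genes were. The median gap was 0.26 log2, or 1.20-fold, against 0.02 over all genes tested, and 29 of the 36 were higher at an unadjusted p under 0.05, where 5.53% of all genes were. None was called. The gap of Luc minus Nons had a median of 0.04 in the same list. The median was 0.27 against shSetdb1.4 A and 0.26 against B without 5-aza, and 0.34 and 0.17 with it. The number of members above 0 was 36 of 36 under each scaling tried, including centring and quantile normalization.

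The thymidine kinase Tk1, of the salvage pathway to DNA, was at 16.0 and 16.5 RPM with shSetdb1.4 and 21.6 RPM with shSetdb1.6, with the controls at 13.3 to 15.1 RPM. After 5-aza it was at 15.6, 17.3 and 20.2 RPM, with the controls at 10.4 to 12.6 RPM. The order controls, shSetdb1.4, shSetdb1.6 held without overlap in both states. Rrm2, the small subunit of ribonucleotide reductase, had the largest gap of the list, 0.38, but its interval was wide (CI -0.26 to 1.02). It was at 99.8 and 142 RPM with shSetdb1.4 and 146 RPM with shSetdb1.6, and Luc was above both Nons libraries too, at 121 against 107 and 99.6 RPM. Uhrf1, which brings the maintenance methyltransferase to replicating DNA and binds methylated H3K9, was kept in the list of H3K9 factors. It was at 44.6 and 44.0 RPM with shSetdb1.4 and 55.2 RPM with shSetdb1.6 against 32.9 to 37.0 RPM in the controls, and with 5-aza at 35.3, 39.3 and 46.3 RPM against 24.9 to 27.5 RPM. Its gap was 0.31 (CI 0.18 to 0.45, adjusted p 0.591).

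The same list set the Setdb1 hairpins apart from their controls. The median level per member was 4.71, 4.72 and 4.81 log2 RPM in Luc, Nons A and Nons B, 4.97 and 5.07 with shSetdb1.4 and 5.27 with shSetdb1.6. With 5-aza, it was 4.57, 4.2 and 4.43 in the controls, 4.89 and 5.02 with shSetdb1.4 and 5.17 with shSetdb1.6. Against the own control without 5-aza, 3 of the 36 members were called higher with shSetdb1.4 and 28 with shSetdb1.6, where 2.69% and 5.15% of all genes were. With 5-aza, 30 and 23 were called higher, where 8.0% and 2.95% of all genes were, and none was called lower with either. The difference of the hairpin effects was above 0 for 34 of 36 members (45.9% of all genes), 14 of them at an unadjusted p under 0.05 (2.44% of all genes), and called for 0.

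Germline genes, which are silent in most somatic cells, had a larger median gap than the replication list, 0.28 against 0.15 for Luc minus Nons, but 9 of the 36 listed passed the filter on low values. Those 9 had median levels of -2.23, -3.82 and -3.53 log2 RPM in Luc, Nons A and Nons B without 5-aza. Their medians were -0.05 and 0.03 with shSetdb1.4 and 0.28 with shSetdb1.6. Members could thus pass the filter through the libraries compared here, so their gap and counts are given as values only. The median was present against both cultures, 0.27 against shSetdb1.4 A and 0.24 against B without 5-aza and 0.17 and 0.25 with it. Of the 9 members tested, 5 were above both shSetdb1.4 libraries in both states and 0 below, where 23.3% and 13.3% of all genes were, 1 was higher at an unadjusted p under 0.05 and none was called. Sycp3, a protein of the meiotic chromosome axis, was that one, at 0.779 and 0.867 RPM with shSetdb1.4 and 1.07 RPM with shSetdb1.6, and with 5-aza at 1.02, 1.08 and 1.61 RPM (gap 0.50, CI 0.08 to 0.93). The control libraries lay at 0.636 to 0.850 RPM over both states. Dazl, an RNA-binding protein of germ cells, had the largest gap of the list, 0.53, but without 5-aza it held 3 reads or fewer in each library, and its CI was -0.38 to 1.43.

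In other lists the gap was smaller or followed a single culture, apart from the clustered protocadherins given after the matrix genes. Of 37 collagen and matrix genes, 36 were lower with shSetdb1.6 in the culture means and 13 lay below both shSetdb1.4 libraries in both states, where 13.3% of all genes did. Their median gap was -0.19, but it was -0.33 against shSetdb1.4 A and -0.003 against shSetdb1.4 B without 5-aza, and -0.46 and -0.03 with it. The control hairpins differed more, with a median of -0.31 for Luc minus Nons. Elastin (Eln) was at 25.5 and 14.6 RPM with shSetdb1.4 and 14.6 RPM with shSetdb1.6, and with 5-aza at 9.58, 5.12 and 3.51 RPM. Lumican (Lum), a matrix proteoglycan, was at 2.08, 0.493 and 0.453 RPM, and at 2.32, 0.338 and 0.441 RPM with 5-aza, so that culture A alone was high.

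The clustered protocadherins, cell adhesion proteins whose promoters are chosen at random in neurons, were lower with shSetdb1.6 in 12 of 13 members tested, 8 of them below both shSetdb1.4 libraries in both states, where 13.3% of all genes were. Between the control hairpins, 12 of the 13 were also lower with Luc, 4 of them below both Nons libraries in both states (14.5% of all genes). The difference of the 2 gaps reached an unadjusted p under 0.05 in limma for 0 members. The median gap between the Setdb1 hairpins was -0.26 (-0.12 for Luc minus Nons). It was present against both cultures, -0.20 against A and -0.21 against B without 5-aza and -0.34 and -0.26 with it. Pcdhb17 was at 6.02 and 6.20 RPM with shSetdb1.4 and 5.25 RPM with shSetdb1.6, and with 5-aza at 6.02, 4.56 and 4.18 RPM. The controls were at 5.20 to 5.38 RPM and, with 5-aza, at 4.48 to 5.99 RPM, so shSetdb1.6 lay among them without 5-aza and was the lowest of all with it. Pcdhac1 was at 11.7, 12 and 9.85 RPM, with the controls at 7.20 to 7.69 RPM, and shSetdb1.6 lay between them and shSetdb1.4. Genes of the clusters share constant exons, so reads of Pcdhac1 and Pcdhga11 cannot be assigned with certainty. Of the list, 0 members were called and 5 were lower at an unadjusted p under 0.05, where 2.72% of all genes were.

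Interferon-response genes had a median gap of -0.18 in 20 members tested (Luc minus Nons -0.14), which was -0.11 against each shSetdb1.4 culture without 5-aza and, with 5-aza, -0.47 against A and -0.09 against B. Metalloproteinases and their inhibitors had a median of -0.15 (19 members, 7 below both shSetdb1.4 libraries in both states, against 13.3% of all genes), where Luc minus Nons had -0.12. Imprinted genes had a median of -0.09 (28 members, 10 below both and 2 above both, against 13.3% and 23.3% of all genes), where Luc minus Nons had 0.08. Mest, a paternally expressed gene of mesoderm, was at 27.6 and 24.1 RPM with shSetdb1.4 and 18.5 RPM with shSetdb1.6, and with 5-aza at 16.8, 14.2 and 10.9 RPM. Among 25 p53 targets and inhibitors of cyclin-dependent kinases, 3 lay above and 6 below both shSetdb1.4 libraries in both states (23.3% and 13.3% of all genes), with a median of -0.05. Cdkn1a, which encodes the inhibitor p21, was among the latter, at 596 and 650.2 RPM with shSetdb1.4 and 547 RPM with shSetdb1.6, and at 730.4, 703 and 645 RPM with 5-aza (gap -0.17, CI -0.29 to -0.05).

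Of 24 genes tested that encode H3K9 methyltransferases, readers, demethylases and partners of Setdb1, 10 lay above and 2, Setdb1 and Prdm2, below both shSetdb1.4 libraries in both states, where 23.3% and 13.3% of all genes did. Their median gap was 0.04 and 0 were called. The co-repressor Trim28 was at 228 and 226 RPM with shSetdb1.4 and 247 RPM with shSetdb1.6 (gap 0.09, CI -0.01 to 0.19). The maintenance DNA methyltransferase Dnmt1 was at 104 and 98.9 RPM with shSetdb1.4 and 119 RPM with shSetdb1.6, and with 5-aza at 94.5, 98.7 and 108 RPM (gap 0.19, CI 0.10 to 0.29). The H3K9 methyltransferases Ehmt1 and Ehmt2 had gaps of 0.04 (CI -0.07 to 0.15) and 0.01 (CI -0.11 to 0.13). Small RNA processing genes, which both hairpins need, had a median gap of 0.04 in 15 members, where Luc minus Nons had 0.07. Of these members, 5 lay above and 0 below both shSetdb1.4 libraries in both states (23.3% and 13.3% of all genes). The 19 other lists had median gaps of -0.13 to 0.19, and 0 of their members were called.

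**Figure D5:**
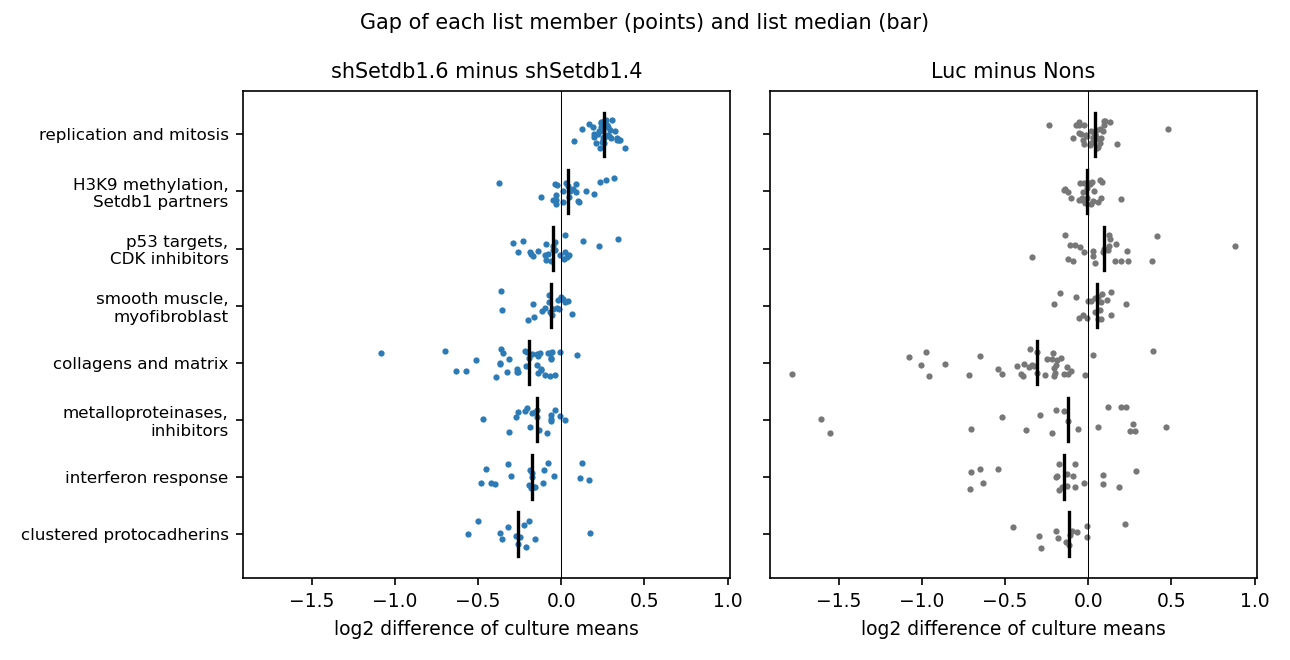
Log2 gap in the culture means of each tested member of 8 gene lists (points) and the median of the list (bar), for shSetdb1.6 minus shSetdb1.4 on the left and Luc minus Nons on the right. The 36 replication and mitosis genes lie between 0.08 and 0.38 on the left with a median of 0.26, and have a median of 0.04 on the right. Of the 37 collagen and matrix genes, all but 1 lie to the left of 0 in the left panel and all but 2 in the right, with medians of -0.19 and -0.31.

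The response to 5-aza, compared by hairpin after the data had been seen, was shared. In shSetdb1.4 cultures, 5-aza changed 2316 genes (17.6%), 1722 higher and 594 lower, and 2285 of these (98.7%) had the same sign in the shSetdb1.6 culture, against 81.5% of all genes. In the shSetdb1.6 culture 204 genes (1.55%) were called, all 204 with the same sign in shSetdb1.4. The counts were 508 without the shSetdb1.4 A library and 691 without the shSetdb1.4 B library with 5-aza for the former, and 26 without either Nons library for the latter. The median ratio of the shSetdb1.6 to the shSetdb1.4 response was 0.889 for the former set. The germline gene Dazl went from 0.019 and 0.051 RPM to 4.16 and 3.46 RPM with shSetdb1.4 and from 0.072 to 3.43 RPM with shSetdb1.6. The difference of the gap with and without 5-aza was called for 0.0% of genes (193 at an unadjusted p under 0.05).

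Seed matches bear on unintended targets, and they were counted in the 3′ UTRs of 12074 tested genes. A match to bases 2 to 8 of the shSetdb1.4 guide (CAGACAA in the message) was held by 1451 genes (12%), and one to the shSetdb1.6 guide (AAGATCT) by 1307 genes (10.8%). An effect of the shSetdb1.4 seed would place its genes higher in shSetdb1.6 minus shSetdb1.4, and an effect of the shSetdb1.6 seed would place its genes lower. Genes with the shSetdb1.4 match had a median gap of 0.008, against 0.015 in genes without it. Genes with the shSetdb1.6 match had a median of -0.005, against 0.017 without it, a difference of -0.022 log2. Genes with a match to the seed of Nons, which neither Setdb1 culture carried, had 0.008 against 0.015. Each of these sets had longer 3′ UTRs (median 2636, 2680 and 2717 bases) than the rest (1090 to 1102 bases), so that match and length move together. At an unadjusted p under 0.05, 3.21% of genes with the shSetdb1.6 match were lower with shSetdb1.6, where 2.70% without it were. The control seeds, which neither Setdb1 culture carried, had a larger difference in the same measure, 3.50% against 2.67% for Nons and 3.72% against 2.68% for Luc. The median gap for the Luc seed was 0.0125 against 0.0146. The gap was below 0 for 52.18% of genes with the shSetdb1.6 match against 42.36% without it. That share was 46.59% against 42.99% for shSetdb1.4, 46.11% against 43.1% for Nons and 44.36% against 43.35% for Luc. By median gap and by this share, the shSetdb1.6 seed had the largest difference. An effect of the seeds was not tested.

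The 12 hairpin libraries held 41.9 to 58.8 M reads. Fibroblast markers were abundant, with Vim at 4326 RPM or more and Thy1 at 801 RPM or more in each, while Sox10, Cdh1, Epcam, Emr1 and Tyrobp, markers of glia, epithelium and macrophages, held at most 7 reads in any. Other members of the same lists were present in each library, such as Csf1r of macrophages at 330 to 494 reads, Krt19 of epithelia at 1030 to 2799 reads and Nes of neural precursors at 11718 to 24632 reads. The summed level of 12 fibroblast markers was 24391 and 19305 RPM with shSetdb1.4 A and B and 19943 RPM with shSetdb1.6, and with 5-aza 19361, 15073 and 15157 RPM. As with the matrix genes, shSetdb1.4 A was the high culture and B and shSetdb1.6 were close. Much of the sum was collagen, with Col1a1 at 4750 to 11424 RPM and Col1a2 at 2335 to 4817 RPM over the libraries. The sum and the matrix genes are therefore not separate measures. Epithelial markers summed to 48.9 and 66.0 RPM with shSetdb1.4 and 67.8 RPM with shSetdb1.6, and neural and glial markers to 474, 434 and 487 RPM. The part of these differences in the gene gaps above was not tested. In bulk RNA, fewer cells of a type and less RNA per cell cannot be told apart. Genes on the X had a median gap of -0.01 (431 genes) and autosomal genes of 0.02.

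The gaps between the Setdb1 hairpins resembled those between the control hairpins in part. Across the 13134 genes, the culture-mean gap of shSetdb1.6 minus shSetdb1.4 had Pearson's r of 0.377 and Spearman's rho of 0.268 with that of Luc minus Nons. Genes are not independent replicates, and no library was shared. The r was 0.098 without 5-aza and 0.484 with it. Of 124 genes with a culture-mean gap of 0.5 log2 or more between the Setdb1 hairpins, 104 (83.9%) had the same sign between the control hairpins, against 61.8% of all genes. By 5-aza state, this share was near that of all genes without 5-aza, at 87 of 154 genes (56.5% against 52.2%). With 5-aza it was 201 of 238 genes (84.5% against 65.9%).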

How the data were processed

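Poly(A) RNA of mouse embryonic fibroblasts was sequenced as 100-bp single-end reads. The authors deposited a table of log2 RPM, the log2 of reads scaled to a common library total, for 25965 gene intervals in 13 libraries. How the table was made is not given in the sources used here, beyond CASAVA 1.4 and mm10 in the submitters' processing notes. Values above the floor of 0.9 read were whole multiples of 1 read within 0.05 of a read. In the 12 hairpin libraries 1 read was worth 0.017 to 0.0239 RPM, and in the 13th library 0.0491 RPM. A level therefore carries counting error, largest for genes near 1 RPM, and that error covers counting only. The 13th library, given 5-aza and no named hairpin, entered no comparison.

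The 13134 genes that reached 1 RPM in 3 or more hairpin libraries were tested on the deposited log2 values with limma 3.58.1 (lmFit, contrasts.fit, eBayes with a trend) in R 4.3.3. All tests were two-sided with Benjamini-Hochberg adjustment over all genes tested. The fit by 5-aza state held 12 libraries in 8 groups, with 4 residual degrees of freedom, all from the A and B pairs. The fit of culture means averaged the libraries of a culture without and with 5-aza and held 6 means of 4 hairpins, with 2 residual degrees of freedom. In both, the single shSetdb1.6 and Luc cultures were assumed to vary like the others. Nothing states that cultures A and B came from separate embryos, so p-values measure the spread between these cultures. The culture means also assume that a letter names the same culture without and with 5-aza. The letter difference (A minus B) without and with 5-aza correlated over genes at 0.577 for shSetdb1.4 and -0.232 for Nons, so an alternative crosses the Nons letters. No pair of libraries lay within sampling noise.

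Setdb1, the list of responsive genes, the genes with the largest gaps among those whose libraries did not overlap and whose mean was at least 1 RPM (12 in each direction for the culture means, 5 for the other contrasts) and the 2 members of each list with the largest gap were named by rule. Not all genes so named are printed, and one is not reported here. Other list members stand as examples. The comparison, the members and the gene lists were chosen with earlier results of these data known. Differences of each Setdb1 hairpin from a control, the response to 5-aza by hairpin and the gaps to single cultures were added after seeing the data. Guides came from the study's list of hairpins and were matched to GENCODE vM21 transcripts on GRCm38, and 3′ UTRs were taken from the same annotation. The scripts for the fits were tested on simulated data. Alternatives were other filters, scalings, sets of libraries, replicate blocks and leaving out each A or B library or, in the culture means, each A or B culture. Tables and figures were made with Python 3.11.15, pandas 2.3.3, numpy 2.4.6 and matplotlib 3.10.9.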

Additional observations from a re-analysis of the deposited data

Results flagged for a closer look

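In 3 of the named genes, the level with 5-aza differed from that without it in one direction with shSetdb1.6 and in the other in both shSetdb1.4 cultures. Neat1, a nuclear long noncoding RNA, went from 35.7 to 62.4 RPM and from 43.5 to 69.2 RPM in the shSetdb1.4 cultures (log2 changes of 0.81 and 0.67), and from 47.4 to 37.9 RPM with shSetdb1.6 (-0.32). Hist1h1e, a linker histone gene, changed by -0.14 and -0.55 with shSetdb1.4 and by 0.59 with shSetdb1.6, at levels near 1 RPM. AC156572.3 changed by -0.55 and -0.10 with shSetdb1.4 and by 0.24 with shSetdb1.6. In the test of the difference itself, the interaction of hairpin and 5-aza in limma, none of the 3 passed (adjusted p 0.9999 for each), and Neat1 had the lowest unadjusted p of the 3, 0.0028.

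The 13th library, whose title gives 5-aza but not a hairpin, entered no comparison. Only Setdb1, Pgk1 and the 12 Setdb1-responsive genes were looked at in it. For 5 of these genes it was above all 3 control libraries with 5-aza. Setdb1 was at 47.0 RPM there, against 42.7 to 43.9 RPM in the controls and 10.5 RPM with shSetdb1.6. Among Setdb1-responsive genes, Angptl7 was at 4.32 RPM (controls 0.745 to 1.39), 2610507I01Rik at 0.196 RPM (0.019 to 0.043), Cpn1 at 0.245 RPM (0.166 to 0.237) and Rab6b at 5.59 RPM (4.60 to 5.55). It was below all 3 for Rims2 at 0.442 RPM (controls 2.71 to 2.81), Kank4 at 2.26 RPM (6.74 to 7.43) and Pitpnm3 at 2.80 RPM (4.87 to 8.12). The same held for Rps15a-ps2 at 1.03 RPM (6.05 to 7.26), Gm17430 at 1.28 RPM (4.41 to 5.70) and Pgk1 at 24.2 RPM (42.2 to 65.7). Tex11 and Gm11019 lay within the controls. The name of this library begins with PGK, and the paper describes a PGK sample in which the variants of that strain were identified. Whether its cells were of the PGK strain rather than of the cross is not stated. Strain and lack of a named hairpin therefore cannot be told apart here. With a single library these differences were not tested.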

How the results depend on the processing

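Counts are genes called with limma. Between the Setdb1 hairpins, 0 genes were called without 5-aza in every alternative tried. With 5-aza, the replicate block by letter with the Nons letters crossed, an alternative added after seeing the data, called 6. In the culture means 0 were called in every alternative except leaving out a culture (0 to 2731). In the culture means without shSetdb1.4 A or B, the spread used for each gene came wholly from the trend over genes. This also held there for Luc minus Nons and for the difference of hairpin effects. It held too for the culture means of Luc and Nons fitted alone. The causes of the other changes were not tested, and the single shSetdb1.6 and Luc cultures could not be left out.

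Where the Nons letters were crossed, the replicate block by letter called 54 genes for Luc minus Nons without 5-aza, 604 with it and 571 in the culture means, and 1 gene for the change of the Setdb1 gap with 5-aza. It called 1352 and 3644 genes for shSetdb1.4 minus Nons without and with 5-aza, 2515 and 1717 for shSetdb1.6 minus Luc, and 4377 and 1985 for 5-aza with shSetdb1.4 and shSetdb1.6. The crossed block by culture called 1 gene each for Luc minus Nons with 5-aza and in the culture means and for the difference of hairpin effects, and 4296 and 1556 for 5-aza. The labels do not say whether a letter pairs libraries of different hairpins, and A minus B correlated over genes between shSetdb1.4 and Nons at -0.263 without and 0.560 with 5-aza. With the block as labelled, by letter, the counts were 748 and 2357 for shSetdb1.4 minus Nons, 975 for shSetdb1.6 minus Luc with 5-aza, 766 for 5-aza with shSetdb1.6 and 1 for Luc minus Nons with 5-aza. By culture they were 460 for 5-aza with shSetdb1.6, and 1 each for Luc minus Nons and the difference of hairpin effects in the culture means.

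Fits of only the hairpins compared called 2 genes for Luc minus Nons without 5-aza, 2368 in the culture means, and 256 and 2 for 5-aza with shSetdb1.4 and shSetdb1.6. Without the filter on low values, 4 genes were called for Luc minus Nons with 5-aza and 1 each for the culture means and the difference of hairpin effects. Median centring called 1 for Luc minus Nons with 5-aza.

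Leaving out 1 library gave 0 to 1 genes for Luc minus Nons without 5-aza, 0 to 2375 in the culture means and 0 to 1750 for the difference of hairpin effects. It gave 98 to 499 and 303 to 1775 for shSetdb1.4 minus Nons, 367 to 1016 and 225 to 673 for shSetdb1.6 minus Luc, and 508 to 2079 and 26 to 280 for 5-aza with shSetdb1.4 and shSetdb1.6.

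The share of shSetdb1.4 calls with the same sign in shSetdb1.6 was 96.5% to 99.2% without and 98.3% to 100% with 5-aza when 1 library was left out, and 95.5% in both states without the filter. With 5-aza it was 99.4% after quantile normalization, 97.9% with the letter block and 94.3% with it crossed. With an 8-base seed match the shSetdb1.6 seed difference was -0.030. Of 2838 values of the 116 named genes under alternatives, 2806 kept their sign. Depth limited genes near 1 RPM, where a hairpin library held about 42 to 59 reads.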
